A study of Mus musculus with 11 samples.

Results

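Connexins are the proteins that build gap junctions, the channels that join the cytoplasm of neighboring cells. Each gene encodes 1 subunit. Subunits assemble into a hemichannel in the membrane of each cell, and hemichannels of facing cells dock to let ions and small molecules pass. In the brain the subunits divide between cell types. Gja1 (connexin 43) and Gjb6 (connexin 30) are the main connexins of astrocytes, and both, with Gjb2 (connexin 26), are also found in cells of the meninges. Gja4 (connexin 37) and Gja5 (connexin 40) belong to the vessel wall, Gjc1 (connexin 45) to vascular smooth muscle and some neurons, Gjc3 (connexin 29) to the oligodendrocyte lineage, and Gjd2 (connexin 36) builds the electrical synapses of neurons.

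These 8 genes, of 20 connexin genes and 53465 genes in the count tables, were examined in sorted mPFC CRF1+ neurons. Gjb2 was selected on its higher counts in the ethanol mice of these same data, and the other members are connexins of brain cell types taken for comparison. The values of Gjb2 between the groups are therefore a description without a test. Counts over the 8 genes that include Gjb2 carry the same limit.

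RNA was sequenced from GFP-positive cells sorted from the medial prefrontal cortex (mPFC) of single male CRF1:GFP mice, at least 10 weeks old, in which GFP reports expression of the corticotropin-releasing factor receptor 1. All 11 mice carried the reporter and received 68.1 mg/kg pyrazole, an inhibitor of alcohol dehydrogenase. The 6 naive mice breathed air. The 5 withdrawn mice received ethanol at 1.75 g/kg with the pyrazole and chronic intermittent ethanol vapor, 16 h on and 8 h off on 4 days per week, over 5 to 6 weeks, followed by 5 to 8 days of abstinence. For 3 of the withdrawn mice (numbers 3, 4 and 5) the source label conflicts with this and reads control, and the design text counts 5 control and 6 ethanol mice. Title and treatment agree for all mice and set the groups used here.

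Libraries held 7351567 to 22244869 counts on genes and 15585 to 31830 genes with a count. A library's floor of 3 counts corresponds to 0.140 to 0.369 CPM, the counts scaled to a TMM-normalized library total of 1000000. Naive mouse 5 had the fewest genes detected. Markers of glutamatergic neurons were abundant in every library, with a summed level over 10 genes of 3111 to 4686 CPM in naive and 2062 to 4430 CPM in withdrawn mice. Slc17a7, the vesicular glutamate transporter of these neurons, ranged from 896 to 1928 CPM in naive and from 738 to 1797 CPM in withdrawn mice. Withdrawn mouse 2 stood apart from the other withdrawn mice in several connexins, and results that rest on it are given with and without it. It was singled out by these same values, so results without it are a description and not further support. Since each library is bulk RNA of many cells, fewer cells of a type and less RNA per cell cannot be told apart.

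Gjb2 and Gjb6 are neighbors on chromosome 14 (GRCm38). Gjb2 lies at chr14:57098600-57104702 and Gjb6 at chr14:57123303-57133611, both on the minus strand with 18600 bases between them. Gja1 lies on chromosome 10 at chr10:56377330-56402513 on the plus strand. The coding sequence of all 3 lies in 1 exon, for proteins of 226, 261 and 382 residues. Their promoters are shown because these 3 genes were high in the same mice. The sequences are from RefSeq (GRCm38.p6), 250 bases before to 50 bases after the start site, with motif matches in capitals. The windows are chr14:57104653-57104952 for Gjb2, chr14:57133562-57133861 for Gjb6 and chr10:56377050-56377349 for Gja1, each written along its gene's strand.
Gjb2: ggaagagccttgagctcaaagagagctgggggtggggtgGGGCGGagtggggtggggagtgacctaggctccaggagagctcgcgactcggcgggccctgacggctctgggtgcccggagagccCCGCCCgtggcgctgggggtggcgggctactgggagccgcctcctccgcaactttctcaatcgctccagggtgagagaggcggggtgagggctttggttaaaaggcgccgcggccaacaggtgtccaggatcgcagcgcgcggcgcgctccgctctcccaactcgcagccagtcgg
Gjb6: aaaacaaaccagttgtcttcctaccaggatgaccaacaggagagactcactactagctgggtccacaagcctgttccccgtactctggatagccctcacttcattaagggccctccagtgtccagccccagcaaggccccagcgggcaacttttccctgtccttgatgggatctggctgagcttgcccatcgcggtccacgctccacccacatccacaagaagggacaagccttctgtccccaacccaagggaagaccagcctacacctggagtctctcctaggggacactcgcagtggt
Gja1: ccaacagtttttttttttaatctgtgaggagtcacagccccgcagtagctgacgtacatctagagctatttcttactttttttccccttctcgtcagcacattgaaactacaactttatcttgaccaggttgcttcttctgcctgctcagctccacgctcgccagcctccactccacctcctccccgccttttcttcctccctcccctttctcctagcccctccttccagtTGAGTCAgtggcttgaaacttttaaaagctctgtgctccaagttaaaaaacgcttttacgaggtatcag

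The motifs searched, on both strands, were the GC box GGGCGG, the TATA box TATAAA, the CCAAT box CCAAT, the AP1 motif TGANTCA and the forkhead motif TAAACA. The Gjb2 window held 2 GC boxes, beginning at -211 and -126 from the start site, with the second on the opposite strand. The Gja1 window held 1 AP1 motif at -19, and the Gjb6 window held none of the motifs. No match overlapped another. Of 32851 RefSeq promoters of this length, 35.7% held a GC box, 13.6% a TATA box, 37.4% a CCAAT box, 7.81% the AP1 motif and 13.4% the forkhead motif. G and C made up 70.0% of the Gjb2 window, 57.3% of the Gjb6 window and 47.7% of the Gja1 window, against a median of 52.7% over all promoters. No motif of the search was shared by the 3 windows.

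Gjb2 was near 0 in naive mice and high in 4 of the 5 withdrawn mice. Naive mice had 2, 25, 17, 18, 0 and 67 counts, or 0 to 4.14 CPM with a median of 1.21 CPM. Withdrawn mice 1 to 5 had 1582, 16, 1317, 1077 and 616 counts, or 114, 1.79, 61.5, 132 and 43.6 CPM. Every withdrawn mouse but number 2 lay above all naive mice, and number 2 lay inside the naive range. The group means were 1.39 ± 1.48 CPM (SD, n = 6) and 70.7 ± 53.0 CPM (SD, n = 5). The log2 fold change was 5.63 with a standard error (SE) of 1.01, a 49.5-fold difference, and 5.92 (SE 0.78) without withdrawn mouse 2.

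Gjb6, the other subunit gene of the chromosome 14 pair, was present at low levels in naive mice and was high in the same withdrawn mice as Gjb2. Naive mice had 103, 316, 4, 219, 75 and 120 counts, or 0.375 to 17.4 CPM with a median of 9.24 CPM. Withdrawn mice 1 to 5 had 4558, 0, 3936, 2659 and 1311 counts, or 328, 0, 184, 327 and 92.7 CPM. Withdrawn mouse 2 had no count among 8696939, which allows up to 0.336 CPM from counting error alone, and the other 4 withdrawn mice lay above all naive mice. The means were 9.01 ± 6.01 CPM (SD, n = 6) in naive and 186 ± 144 CPM (SD, n = 5) in withdrawn mice. The log2 fold change was 4.36 (SE 1.05), which did not pass the edgeR quasi-likelihood test over all genes (adjusted p = 0.170). It passed in DESeq2 (4.42, SE 1.22, adjusted p = 0.0259) and in edgeR without withdrawn mouse 2 (4.66, SE 0.64, adjusted p = 0.00439). With any other single mouse left out, the edgeR adjusted p was 0.204 to 0.516.

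Gja1, which encodes connexin 43, split the withdrawn mice in the same way as Gjb2 and Gjb6, from a higher naive level. Naive mice had 182, 581, 32, 274, 0 and 346 counts, or 0 to 31.9 CPM with a median of 17.8 CPM. Withdrawn mice 1 to 5 had 4289, 57, 4648, 2220 and 1821 counts, or 309, 6.38, 217, 273 and 129 CPM. Again 4 of 5 withdrawn mice lay above all naive mice, and mouse 2 lay among the naive mice. The means were 15.3 ± 12.0 CPM (SD, n = 6) and 187 ± 122 CPM (SD, n = 5). The log2 fold change of 3.61 (SE 0.96) did not pass in edgeR with all mice (adjusted p = 0.250) or in DESeq2 (3.65, SE 1.14, adjusted p = 0.0713), and passed in edgeR without withdrawn mouse 2 (3.91, SE 0.82, adjusted p = 0.0396). With any other single mouse left out, the edgeR adjusted p of Gja1 was 0.145 to 0.631.

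**Figure D1:**
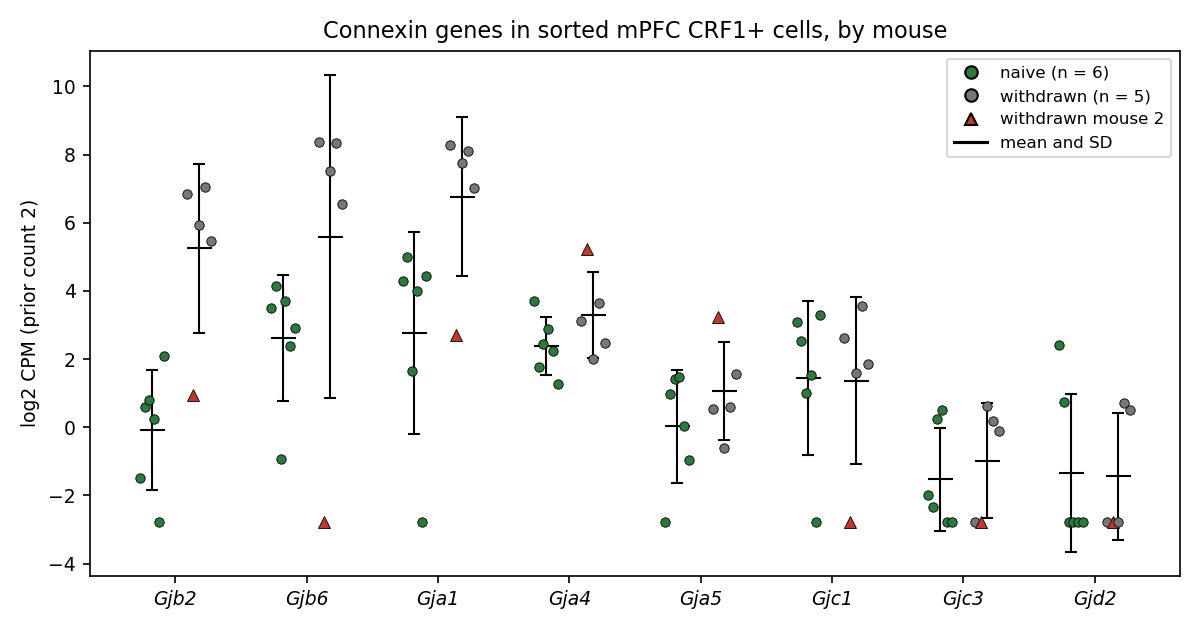
Log2 CPM (prior count 2) of the 8 connexin genes, 1 point per mouse, naive in green (n = 6) and withdrawn in grey (n = 5), with withdrawn mouse 2 as a red triangle and bars for mean and SD. For Gjb2, Gjb6 and Gja1, 4 of the 5 withdrawn mice lie above all naive mice and the triangle does not, while for Gja4 and Gja5 the triangle is the highest point.

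Without the 3 withdrawn mice whose labels conflict, which leaves withdrawn mice 1 and 2, the log2 fold change was 4.16 (SE 1.31, adjusted p = 0.656) for Gjb6 and 3.34 (SE 1.24, adjusted p = 0.789) for Gja1. The direction stayed, but 1 of the 2 remaining mice then carried the difference.

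The 3 genes also kept similar proportions to each other in the withdrawn mice in which they were high. In withdrawn mice 1, 3, 4 and 5, Gjb6 had 2.13 to 2.99 counts and Gja1 had 2.06 to 3.53 counts for each count of Gjb2. In the 5 naive mice with a Gjb2 count the same ratios ran from 0.235 to 51.5 for Gjb6 and from 1.88 to 91 for Gja1, on 67 Gjb2 counts or fewer. Together the 3 genes took 97.1% (95% exact binomial interval 96.8 to 97.4), 97.8% (97.5 to 98.0), 95.2% (94.6 to 95.7) and 93.3% (92.5 to 94.0) of the counts on all 20 connexins in withdrawn mice 1, 3, 4 and 5. They took 11.2% (8.91 to 13.9) in withdrawn mouse 2 and from 27.9% (21.6 to 34.8) to 68.7% (66.1 to 71.1) in naive mice. The 3 genes were grouped because they were high in withdrawn mice 1, 3, 4 and 5. The contrast in their share follows from that choice and is a description. The intervals treat reads as independent, which reads of amplified cDNA are not. They are therefore too narrow for counting error and leave out the spread between mice.

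Among the vascular connexins, Gja4 was detected in every mouse. Naive mice had 2.28 to 12.8 CPM (mean 5.89 ± 3.77, SD, n = 6). Withdrawn mice 1 to 5 had 8.50, 37.4, 3.83, 12.4 and 5.38 CPM (mean 13.5 ± 13.7, SD, n = 5). Only mouse 2 exceeded the naive range. The fitted log2 fold change was 1.20 (SE 0.64, adjusted p = 0.769), and 0.34 (SE 0.58, adjusted p = 0.984) without that mouse.

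Gja5, the other endothelial subunit, lay at 0 to 2.62 CPM in naive mice and at 1.30, 9.18, 0.514, 1.35 and 2.83 CPM in withdrawn mice 1 to 5. Mouse 2 was again the highest, and the log2 fold change was 1.13 (SE 1.02, adjusted p = 0.887) with it and 0.12 (SE 1.06, adjusted p = 0.998) without it. Its counts are uncertain, because 165 exonic bases of Gja5 overlap Gpr89 on the opposite strand and 801 of 5738 stretches of 75 bases, the read length, also occur in Gpr89 or Zfp697. Whether the counting used strand is not given in the sources used here. Withdrawn mouse 2 thus had the lowest levels of the withdrawn group for Gjb2, Gjb6 and Gja1 and the highest for Gja4 and Gja5.

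Gjc1, a subunit of smooth muscle and some neurons, had 0 to 9.69 CPM in naive mice and 5.98, 0, 2.85, 11.6 and 3.47 CPM in withdrawn mice 1 to 5. The groups overlapped almost fully, with means of 4.72 ± 3.83 (SD, n = 6) and 4.77 ± 4.35 CPM (SD, n = 5). Its log2 fold change was 0.01 (SE 1.14, adjusted p = 0.999) and took either sign among the alternative fits. At this SE no difference was detectable.

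Gjc3, of the oligodendrocyte lineage, had 22 counts or fewer in each naive mouse and 30 or fewer in each withdrawn mouse. It was at 0 in 2 naive and 2 withdrawn mice. The means were 0.412 ± 0.583 (SD, n = 6) and 0.633 ± 0.620 CPM (SD, n = 5), near the floor, with a log2 fold change of 0.62 (SE 1.39, adjusted p = 0.966). Of 4281 stretches of 75 bases in its transcripts, 24 also occur in other genes.

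Gjd2, the neuronal connexin, had 48 and 28 counts in naive mice 1 and 2, 12 and 18 counts in withdrawn mice 4 and 5, and none in the other 7 mice. It did not pass the filter on low counts, so that 7 of the 8 genes were tested. Its highest level was 5.16 CPM in naive and 1.48 CPM in withdrawn mice. The gene shares exonic bases with A530058N18Rik on the opposite strand. No difference in Gjd2 was detectable at this depth.

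Read over the family, 0 of the 7 tested genes passed the call of an adjusted p of at most 0.05 with a log2 fold change beyond 0.6, against 0.00585% of all 17093 genes tested (1 gene). At an unadjusted p under 0.05, 3 of the 7 were higher in withdrawn mice, against 5.00% of all genes. DESeq2 called 2 (Gjb2 and Gjb6) higher, against 1.57% of its 21849 genes. EdgeR without withdrawn mouse 2 called 3 (Gjb2, Gjb6 and Gja1) higher, against 1.06% of 18170 genes. Nothing is read from the Gjb2 part of these counts, which its selection fixed. Setting Gjb2 aside, 2 of 6 tested members were higher at an unadjusted p under 0.05, DESeq2 called 1 of them, and edgeR without withdrawn mouse 2 called 2. The median log2 fold change of those 6 genes was 1.17, beside 0.02 over all genes, and 0.34 over the 7 tested without withdrawn mouse 2. In none of the 7 genes did the 2 groups separate fully, against 0.948% of all genes tested in either direction.

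**Figure D2:**
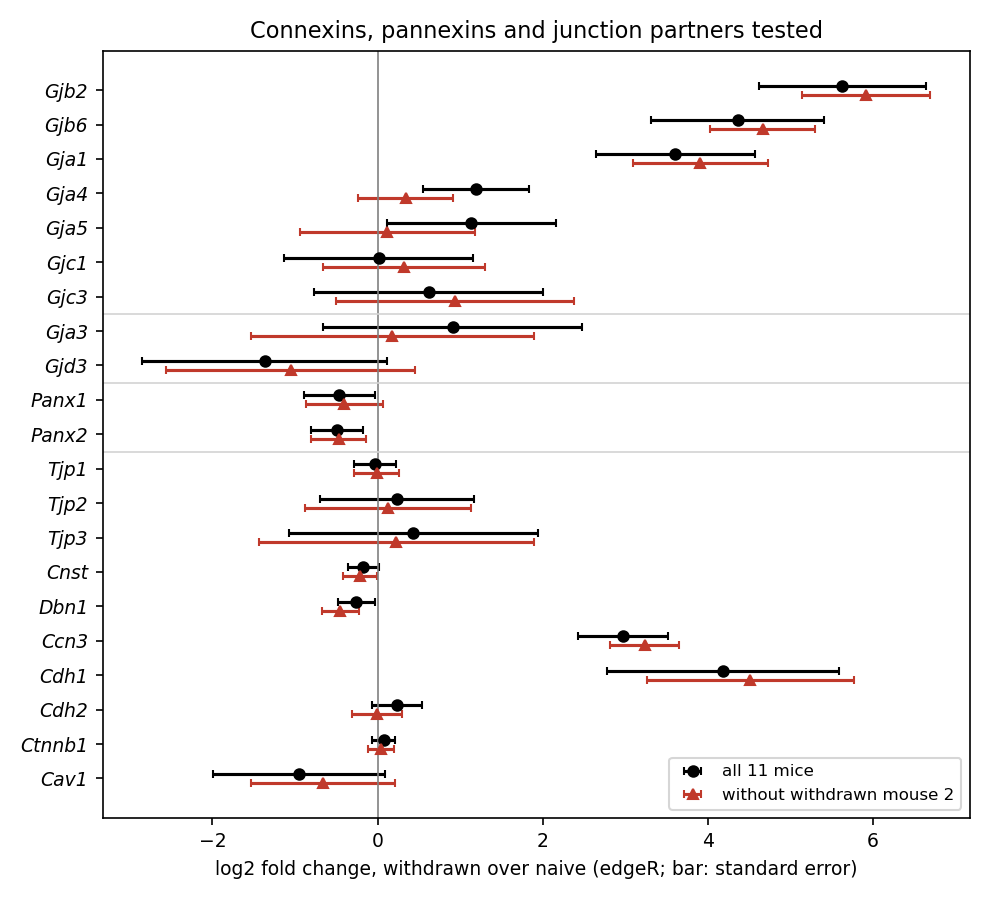
Log2 fold change of withdrawn over naive mice with its standard error (edgeR) for the tested connexins, pannexins and junction partners, with all 11 mice (black circles) and without withdrawn mouse 2 (red triangles). Gjb2, Gjb6, Gja1, Ccn3 and Cdh1 lie far right of 0 in both fits, and Gja4 moves from 1.20 to 0.34 without that mouse.

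Compared per kilobase of exon, so that genes of different length can be ranked, the order of the levels differed between the groups. In naive mice the order was Gja4 (3.49 ± 2.24 CPM per kilobase, SD, n = 6), Gjb6 (3.37 ± 2.25), Gja1 (1.49 ± 1.17), Gjc1 (0.944 ± 0.765), Gjb2 (0.580 ± 0.617), Gjd2 (0.387 ± 0.720), Gja5 (0.238 ± 0.194) and Gjc3 (0.0947 ± 0.134). In withdrawn mice it was Gjb6 (69.7 ± 54.0 CPM per kilobase, SD, n = 5), Gjb2 (29.4 ± 22.0), Gja1 (18.2 ± 11.9), Gja4 (8.01 ± 8.16), Gjc1 (0.953 ± 0.869), Gja5 (0.528 ± 0.615), Gjd2 (0.191 ± 0.263) and Gjc3 (0.145 ± 0.142). Every neighboring pair in both orders differed by less than the larger SD of the pair. Withdrawn mouse 2 did not have this order, with Gja4 first at 22.2 CPM per kilobase and Gjb6 at 0. In a calculation added after seeing the data, the withdrawn order without that mouse was the same, with Gjb6 at 87.1 ± 43.2 (SD, n = 4), Gjb2 at 36.5 ± 17.5, Gja1 at 22.6 ± 7.65 and Gja4 at 4.47 ± 2.25 CPM per kilobase. Gjb6 then exceeded Gjb2, and Gja1 exceeded Gja4, by more than the larger SD of the pair. So did Gja4 over Gjc1 (1.19 ± 0.793 CPM per kilobase) and Gjc1 over Gja5 (0.261 ± 0.168).

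The remaining 12 connexins were low. Gjb1 and Gjb5 had no count in any mouse, and only Gja3 and Gjd3 passed the filter. Gja3, a lens connexin on the same chromosome 14 stretch, had a log2 fold change of 0.91 (SE 1.56, adjusted p = 0.951), and Gjd3 one of -1.37 (SE 1.48, adjusted p = 0.911). None of the 12 was called in edgeR, with or without withdrawn mouse 2, or in DESeq2.

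Genes around the pair on chromosome 14 were also examined. Within 200000 bases, 4 genes other than the pair had more than 10 counts in all. Zmym2, a zinc finger gene, had 71.3 ± 10.7 CPM (SD, n = 6) in naive and 69.3 ± 20.9 CPM (SD, n = 5) in withdrawn mice, and its log2 fold change was -0.04 (SE 0.21, adjusted p = 0.985). Cryl1, a crystallin-related gene, had 23.7 ± 5.63 and 34.5 ± 9.51 CPM, with a log2 fold change of 0.54 (SE 0.27, adjusted p = 0.724). None of the 3 tested neighbors (Zmym2, Gja3 and Cryl1) was called, and B020004C17Rik did not pass the filter.

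**Figure D3:**
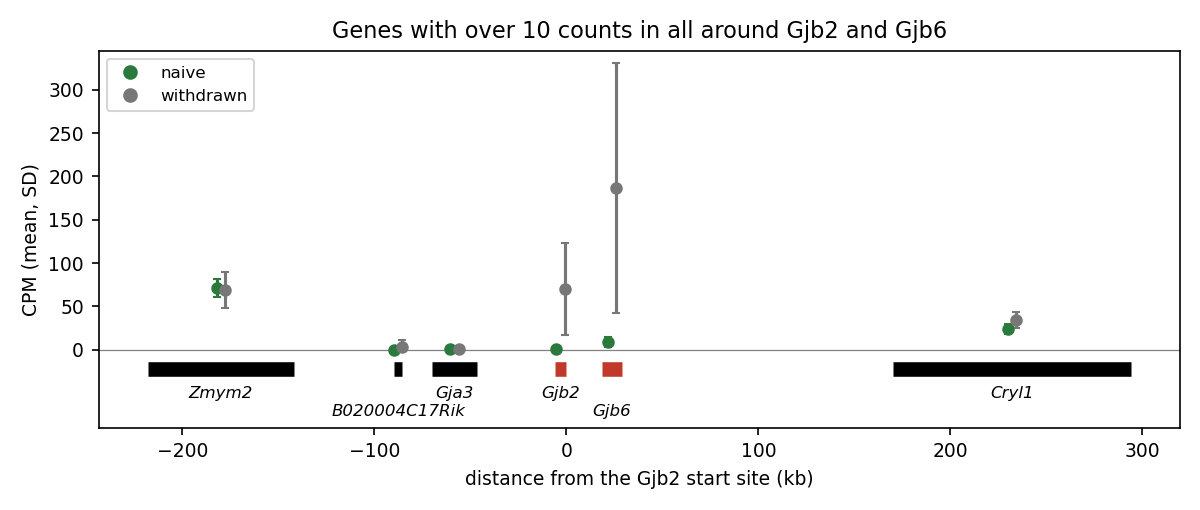
CPM of genes with more than 10 counts in all around Gjb2 and Gjb6, against distance from the Gjb2 start site in kilobases, with naive means in green (n = 6), withdrawn means in grey (n = 5), SD bars (not drawn below 0) and gene bodies as blocks below. Withdrawn means stand above naive means at Gjb2 and Gjb6, at 70.7 and 186 CPM, while Zmym2 has means of 71.3 and 69.3 CPM.

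Pannexins, which form large-pore channels related in shape to hemichannels but do not usually make gap junctions, had no called member. Panx1 had 41.2 ± 11.5 CPM (SD, n = 6) in naive and 29.8 ± 16.0 CPM (SD, n = 5) in withdrawn mice (log2 fold change -0.47, SE 0.43, adjusted p = 0.891). Panx2, a neuronal pannexin, had 24.3 ± 6.66 and 17.2 ± 5.80 CPM (-0.50, SE 0.31, adjusted p = 0.816). Panx3 was low and untested with all mice.

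Of 10 genes for proteins that scaffold, traffic or bind connexins, all 10 were tested, 6 had higher and 4 lower fitted means in withdrawn mice, and none was called. The median log2 fold change was 0.15. Tjp1, the scaffold ZO-1 that binds connexin 43, had 46.6 ± 17.03 CPM (SD, n = 6) in naive and 45.5 ± 4.41 CPM (SD, n = 5) in withdrawn mice (log2 fold change -0.03, SE 0.25, adjusted p = 0.988). Ccn3, a secreted matricellular protein that binds connexin 43, was high in the same mice as Gjb2. Naive mice 1 to 6 had 130, 127, 118, 173, 25.2 and 144 CPM, and withdrawn mice 1 to 5 had 1142, 134, 1060, 1781 and 566 CPM. Again withdrawn mouse 2 lay among the naive mice and the other 4 above all of them. Its log2 fold change was 2.97 (SE 0.55, adjusted p = 0.0883) in edgeR, 3.02 (SE 0.56, adjusted p = 3.17e-05) in DESeq2 and 3.24 (SE 0.42, adjusted p = 0.00360) in edgeR without withdrawn mouse 2. Cdh1, the epithelial cadherin, had 0 to 4.59 CPM in naive and 28.1, 0.112, 24.5, 19.8 and 5.73 CPM in withdrawn mice 1 to 5 (log2 fold change 4.19, SE 1.41, adjusted p = 0.424). DESeq2 and edgeR without withdrawn mouse 2 each called Ccn3 and no other gene of this list.

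Markers of other cell types that carry these connexins were read in the same libraries. The summed level of 12 markers of leptomeningeal fibroblasts, the cells of the pia and arachnoid, was 0.0677 to 87.4 CPM in naive mice and 1693, 21.3, 887, 1330 and 351 CPM in withdrawn mice 1 to 5. The same 4 withdrawn mice were high and mouse 2 lay inside the naive range. Of the 12 markers, 10 were tested, all 10 had higher fitted means in withdrawn mice (median log2 fold change 4.18), and none was called (4 by DESeq2 and 4 by edgeR without withdrawn mouse 2). The list was chosen with earlier results of these data known, so the count is a description.

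The defining genes differed within that list. Slc47a1, a transporter of meningeal cells, had 0 to 9.00 CPM in naive mice and 312, 0.112, 167, 318 and 108 CPM in withdrawn mice 1 to 5. Col1a1, a chain of fibrillar collagen, had 0 to 16.5 CPM in naive mice and 378, 3.02, 151, 225 and 70.0 CPM in withdrawn mice. Both were high in the mice in which Gjb2 was high. Lum and Igf2, fibroblast genes as well, reached only 2.58 and 0.288 CPM in any withdrawn mouse. Slc6a13 was highest in withdrawn mouse 2, at 6.94 CPM, and at 0 in withdrawn mice 3 and 5. Slc22a6 in withdrawn mouse 2, at 2.80 CPM, also lay above all naive mice. Dcn lay above all naive mice in all 5 withdrawn mice, in mouse 2 narrowly, at 5.26 CPM against a naive maximum of 5.22 CPM. Col3a1 in withdrawn mouse 5, at 1.63 CPM, lay inside the naive range of 0 to 12.0 CPM. The part that such cells or their RNA have in the connexin values was not tested.

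Astrocyte markers were mixed. Their sum over 10 genes was 317 to 606 CPM in naive and 277 to 637 CPM in withdrawn mice. Of the 9 tested, 2 had higher and 7 lower fitted means in withdrawn mice, the median log2 fold change was -0.21, and none was called. Aqp4, the water channel of astrocytes, had 2, 0, 0, 65 and 3 counts in withdrawn mice 1 to 5, and Gfap, their intermediate filament, had 0, 1, 9, 37 and 3. In naive mice Aqp4 had 0 to 172 counts and Gfap 0 to 674. Ndrg2, a gene abundant in astrocytes, was high in the same mice as Gjb2, at 115, 11.2, 87.0, 181 and 48.7 CPM in withdrawn mice 1 to 5 against 0.880 to 39.3 CPM in naive mice (log2 fold change 2.05, SE 0.72, adjusted p = 0.463). Fgfr3, a receptor of astrocytes, lay above all naive mice in withdrawn mice 1, 3 and 4, at 19.7, 20.7 and 24.2 CPM. Slc1a2, the astrocytic glutamate transporter, had 164 to 205 CPM in withdrawn and 140 to 333 CPM in naive mice. The part of astrocytes in the connexin values was not tested.

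The summed level of 10 microglia markers was 15.8 to 28.2 CPM in naive mice and 48.0, 12.4, 39.1, 51.4 and 32.6 CPM in withdrawn mice 1 to 5, high in the same 4 mice. Tmem119 had 7.78, 0, 6.87, 14.4 and 7.92 CPM in withdrawn mice 1 to 5 and at most 1.69 CPM in naive mice, whereas Cx3cr1 and P2ry12, receptors of microglia, reached no more than 1.23 and 0.123 CPM in any withdrawn mouse. Of the 6 tested, 4 had higher and 2 lower fitted means and none was called, and their part in the connexin values was not tested.

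**Figure D4:**
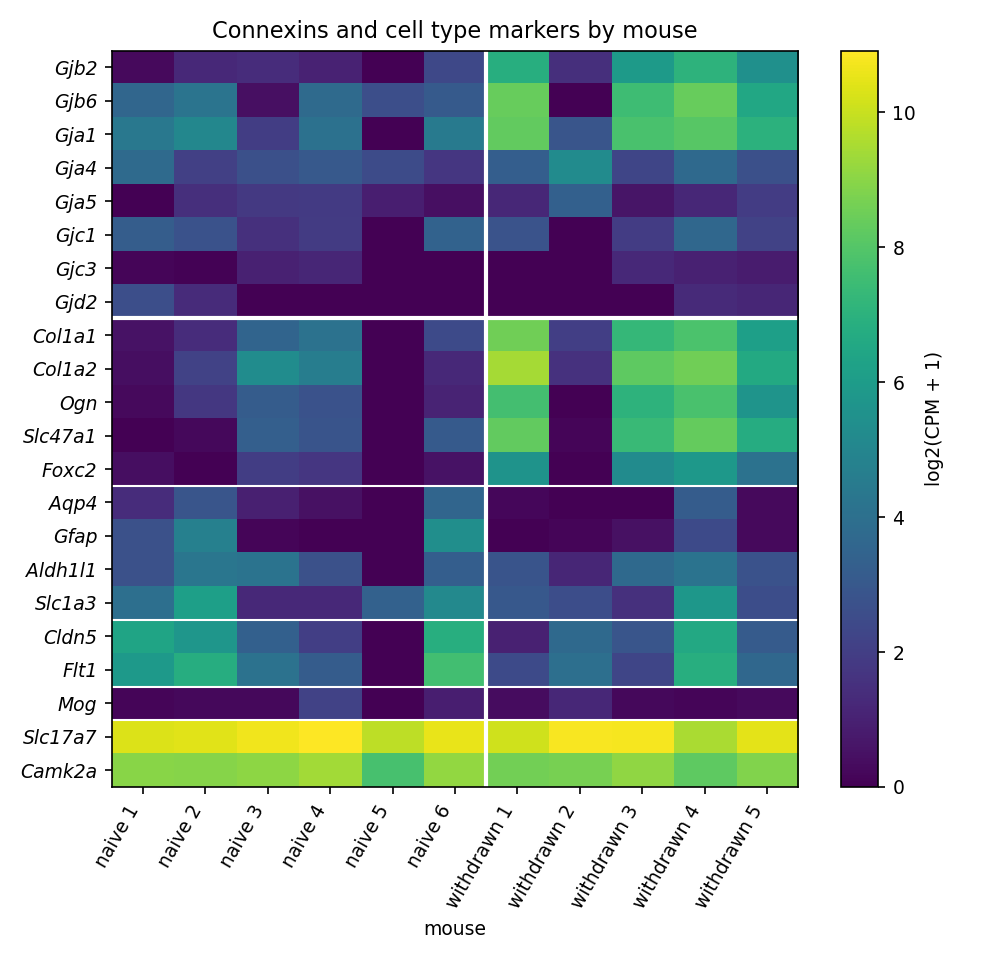
Heat map of log2(CPM + 1) for the 8 connexins (top block) and, below, markers picked from the lists of leptomeningeal fibroblasts, astrocytes, endothelium, oligodendrocytes and glutamatergic neurons in each of the 11 mice. The leptomeningeal block shows only Col1a1, Col1a2, Ogn, Slc47a1 and Foxc2. Dcn, Slc6a13 and Slc22a6 of that list, not drawn, lay above all naive mice in withdrawn mouse 2. Gjb2, Gjb6 and Gja1 and the drawn leptomeningeal markers are bright in withdrawn mice 1, 3, 4 and 5 and dim in withdrawn mouse 2. Aqp4 and Gfap are dark in withdrawn mice 1, 2, 3 and 5 and in naive mice 3, 4 and 5. The astrocyte block shows only Aqp4, Gfap, Aldh1l1 and Slc1a3, the endothelial block only Cldn5 and Flt1, and the oligodendrocyte block only Mog. Ndrg2 of the astrocyte list, not drawn, lay above all naive mice in withdrawn mice 1, 3, 4 and 5. So did Cldn11 and Aspa of the oligodendrocyte list. Fgfr3, also not drawn, lay above them in withdrawn mice 1, 3 and 4.

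Oligodendrocyte and vascular markers were read beside Gjc3, Gja4 and Gja5. Mog, a myelin gene, had 12 counts or fewer in each withdrawn mouse, and Opalin 2 or fewer. Cldn11 had 667, 0, 344, 227 and 71 counts and Aspa 474, 1, 393, 326 and 176 in withdrawn mice 1 to 5, against at most 36 and 11 in naive mice, again with mouse 2 low. DESeq2 called both higher. Cldn11, a claudin of myelin, is also expressed by arachnoid cells. The summed level of 10 endothelial markers ranged from 16.1 to 855 CPM in naive and from 52.2 to 743 CPM in withdrawn mice, and none of the 10 was called. The sum was 52.2, 160, 70.3, 743 and 77.2 CPM in withdrawn mice 1 to 5, so that mouse 2, the highest in Gja4 and Gja5, was not the highest in these markers. In mouse 2 Pecam1 was at 64.8 CPM, while Cdh5 and Tek, both defining genes of endothelium, were at 0.

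**Figure D5:**
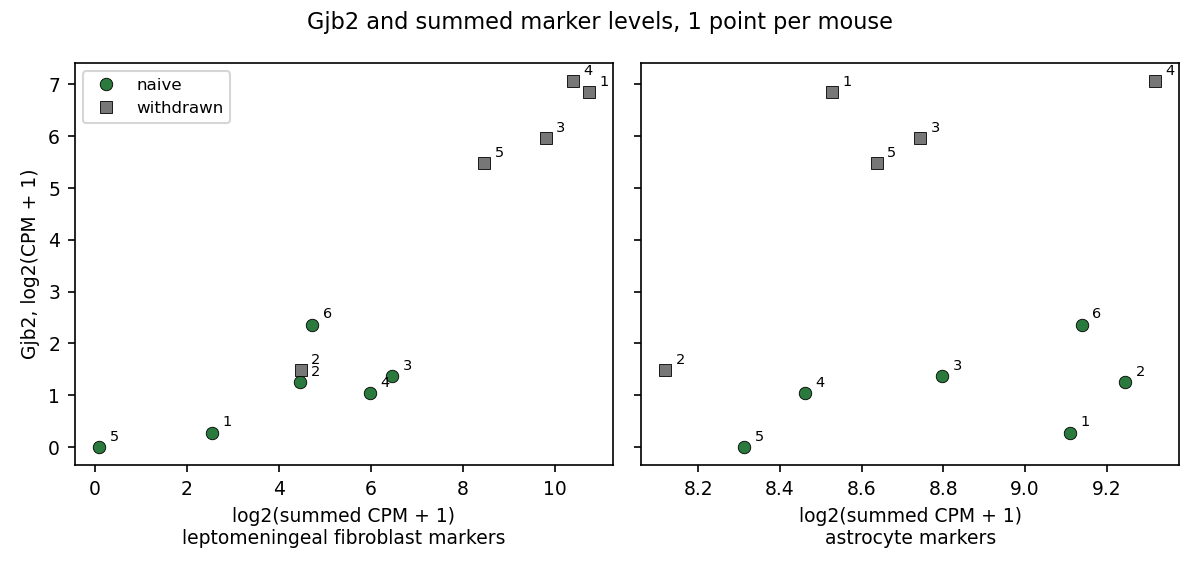
Gjb2 level, log2(CPM + 1), against the summed level of leptomeningeal fibroblast markers (left) and astrocyte markers (right), 1 point per mouse with its number, naive circles in green (n = 6) and withdrawn squares in grey (n = 5). On the left, withdrawn mice 1, 3, 4 and 5 lie apart at the upper right and withdrawn mouse 2 lies with the naive mice, whereas on the right both groups span similar marker levels. The largest terms of the astrocyte sum in naive mice were Slc1a2 and Aldoc, with means of 239 and 106 CPM. In naive mouse 5 Slc1a2 was at 140 CPM with Aqp4 and Gfap at 0.

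The tested genes whose levels over the 11 mice, after the mean of each group was subtracted, were most like a connexin were listed for Gjb2, Gja1 and Gjd2. For Gjb2 they were Pkd2 (Pearson r = 0.98), Nid1 (0.98), Mrvi1 (0.98), Serpinf1 (0.98) and Cpq (0.97), and without the 2 mice farthest from the median of Gjb2 these were 0.90 to 0.95. For Gja1 they were Slc35a2 (0.99), Dock6 (0.98), Srebf1 (0.98), Thbd (0.98) and Fn1 (0.97), and without the 2 farthest mice 0.80 to 0.98. For Gjd2, which had counts in 4 mice, they were Prr5l (0.93), Rhbdf2 (0.91), Apobr (0.88), Prrg1 (0.87) and Gm17690 (0.86). They are the highest of about 17092 values over 11 libraries, in which withdrawn mouse 2 and naive mouse 5 lie far from their groups, and are a description.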

How the data were processed

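RNA was sequenced from mPFC CRF1+ cells of 6 naive and 5 withdrawn mice, 1 mouse per library, as single 75-nt reads of cDNA amplified from 160 pg of RNA by 14 and 12 PCR cycles. The authors used cutadapt for trimming, STAR for alignment to GRCm38 and HTSeq for counting, and the deposited values are raw counts per Ensembl gene and mouse, without normalization. Rows that name no gene took 18.9% to 58.0% of tallied reads and were left out. Symbols, exon lengths and coordinates came from GENCODE M21, which pairs 53274 of 53465 identifiers with a symbol. All 123 list genes matched, Nov as Ccn3 through a RefSeq synonym. Gene promoters came from the RefSeq table.

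Groups followed sample titles and treatments. Replicate numbers were taken only as names of mice, except in the replicate block, and p-values measure the spread between these mice. Same-numbered naive and withdrawn mice are different animals. No 2 libraries were duplicates, with chi-square per degree of freedom of at least 25.6.

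Withdrawn and naive mice were compared with edgeR 4.0.16 in R 4.3.3 (TMM, filterByExpr with a minimum count of 10 and a minimum total of 15, quasi-likelihood test, Benjamini-Hochberg adjustment over all genes tested). The SE is the log2 fold change divided by the square root of F. Levels are CPM (counts scaled to a total of 1000000) of the TMM-scaled library size. On the log2 scale a prior count of 2 was added. Alternatives were DESeq2 1.42.0, limma 3.58.1 voom with sample weights, other normalizations and filters, a replicate block, fits without 3 mice with conflicting labels, and fits without each mouse. The scripts were tested on simulated data. The named genes were the 8 connexins, other connexins and pannexins, genes on which the count of a list rests, and, for Gjb2, Gja1 and Gjd2, the 5 most like tested genes. Some of the other connexins are not reported here by name. Members and lists were chosen with earlier results of these data known. Slc17a7, Zmym2, Cryl1 and single markers given by their values were picked after those values were seen.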

Additional observations from a re-analysis of the deposited data

Results flagged for a closer look

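Of 16 sets of values examined (each of the 8 connexins in each group, on the log2 CPM scale), 5 held a mouse far from the rest of its group. For independent sets chance would give about 1 in 20, or 0.8 of 16. These sets are not independent, since Gjb2, Gjb6 and Gja1 had a Pearson r of 0.993 to 0.998 over the withdrawn mice. Gjb2 was also selected on its values there. The 5 is therefore a description and is not weighed against 0.8. Withdrawn mouse 2 was the far one for Gjb2 (0.95, from 16 counts), Gjb6 (-2.80, from 0 counts) and Gja1 (2.71, from 57 counts), low in each. Naive mouse 3 was low for Gjb6 (-0.95, from 4 counts), and naive mouse 5 was low for Gjc1 (-2.80, from 0 counts), in the library with the fewest genes detected.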

How the results depend on the processing

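The number of genes called over the whole table was 1 and moved most with the settings, to 362 with DESeq2, 137 without a low-count filter, 30 with at least 10 counts in every mouse, and 0 with the replicate block or without the 3 mice with conflicting labels. It ranged from 0 to 193 when 1 mouse was left out (193 without withdrawn mouse 2, 6 without naive mouse 2). Connexins called went from 0 to 2 with DESeq2, 3 without the filter, and 0 to 3 with 1 mouse left out, where withdrawn mouse 2 gave the 3. Gjb6 passed at 4.42 with DESeq2 and 4.33 without the filter, and ranged from 4.03 to 4.66 with 1 mouse left out. It did not pass with voom (adjusted p = 0.646) or in edgeR with the replicate block (adjusted p = 0.802). Gja1 passed at 3.59 without the filter, and ranged from 3.33 to 3.95. The log2 fold change of Gjc1 turned below 0 with TMMwsp (-0.011), without the filter (-0.035), with voom (-0.21) and without the 3 mice (-0.68). It also did so in 5 fits with 1 mouse left out (range -0.62 to 0.36). The cause for Gjc1 was not tested. That of Gjc3 turned below 0 without the 3 mice (-5.53, SE 3.11). Withdrawn mice 1 and 2, the only ones left in that fit, had 0 Gjc3 counts. Gjb2 stayed between 5.28 and 6.35 in 18 fits. The replicate block, which called 0 connexins, is not a known pairing of these mice. Of 5 same-numbered naive and withdrawn pairs, 1 correlated best with its own number (r -0.20 to 0.18). That does not settle whether the numbers mark a pairing. Without withdrawn mouse 2, an alternative for levels chosen after seeing the data, each withdrawn mean moved by less than 1 SD. Gjc3 and Gjd2 had 3 counts or fewer in 6 and 7 of the 11 mice, and Gjd2 has no value from the main comparison.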
